A study of Mus musculus with 12 samples.

Results

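Contacts among 45 developmental transcription factor genes were examined in all 6 interaction tables of the study. The members, of 21728 protein-coding genes in the annotation, are genes of the Pax (6 genes), Lhx (8), Nkx (6), Gata (4), Tbx (4), Fox (4), Barhl (2), Dlx (4) and Irx (3) families together with Six2, Six3, Six6 and Wt1, and they were named from background knowledge as developmental regulators that Polycomb typically holds silent in embryonic stem cells. No measured value entered that choice, although earlier results of the same tables were known. Each gene was taken as a window reaching 20 kb to either side of its 5′ end. The windows of Dlx1 and Dlx2, and those of Dlx6 and Dlx5, overlap and were merged, which left 43 loci on 15 chromosomes, 10 of them on chromosome 2.

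The study compared ESC, the E14Tg2A line of mouse embryonic stem cells grown with LIF, with NCC, neuronal committed cells made from the same line by 48 h of 1 μM retinoic acid without LIF. Each cell type was assayed by Hi-C, which ligates and sequences DNA fragments that lie close together in the nucleus, and by HiChIP, in which the ligated fragments are first pulled down with an antibody, here against nuclear FGFR1 or the architectural protein CTCF. Both biological replicates of each cell type and assay had been merged into 1 table, and a single cell line stands behind all 6. Differences therefore compare pooled libraries with no replicate check, and intervals (95%, exact) cover counting error only.

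Polycomb complexes bind CpG islands, modify histones there and compact chromatin, and in ESC many of their targets are genes of transcription factors that later specify tissues. Distant Polycomb-bound loci are known to meet in the nucleus, and Hox clusters are the best known members of such networks. The tables hold neither RNA, nor histone marks, nor Polycomb proteins, so the silence of the members, their Polycomb binding and the identity of the cells rest on background and labels and could not be checked here. Foxd3, one of the members, is known to be transcribed in ESC.

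The Hi-C tables held 20745652 read pairs in ESC and 21228099 in NCC on chromosomes 1 to 19 and X, those of FGFR1 HiChIP 2662606 and 3203872, and those of CTCF HiChIP 1218098 and 1056437. Between 9.95% and 12.6% of the read pairs of a library joined different chromosomes. Both ends of every read pair had been assigned by the authors to anchors, intervals bounded by GATC restriction sites. In ESC Hi-C a member's window held between 397 and 2960 read pairs with a median of 1335, on 4 to 9 anchors, whereas the median over all genes was 866. In NCC Hi-C the range was 577 to 3005 with a median of 1226 against 893 for all genes. Windows were far thinner in HiChIP, with medians of 144 and 136 read pairs per member for FGFR1 and of 54 and 48 for CTCF in ESC and NCC.

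Member loci contacted one another over long distances more often than their own totals predicted in ESC, and much less so in NCC. The number expected for loci on different chromosomes was set by both loci's inter-chromosomal totals and that of the chromosome pair, and for loci over 2 mb apart on 1 chromosome by their long-range totals and the distance decay. In ESC Hi-C, 27 read pairs joined member loci on different chromosomes where 4.65 were expected, a ratio of 5.81 (3.83 to 8.45), over 826 pairs of loci. In NCC Hi-C the same pairs of loci held 7 read pairs with 5.23 expected (1.34, 0.54 to 2.76). The interval excluded 1 in ESC and included it in NCC. The size of the ESC ratio depended on the window, at 10.5 with 10 kb and 3.10 with 50 kb to either side. No inter-chromosomal read pair was left among interactions with a score of at least 2. Far fewer than 1 was expected there, so that setting cannot decide whether an excess exists.

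On the same chromosome, over 63 pairs of loci, ESC Hi-C held 38 read pairs with 8.90 expected (4.27, 3.02 to 5.86) and NCC Hi-C held 12 with 6.71 expected (1.79, 0.92 to 3.13). The ESC ratio was 6.76 with 10 kb and 1.94 with 50 kb windows. Together, 65 read pairs in ESC were 4.80 times the expected number (3.70 to 6.12), and 19 in NCC were 1.59 times (0.96 to 2.49). The ratio of NCC to ESC was 0.33 (0.19 to 0.56), or 3.01 times more in ESC (1.79 to 5.32), and it was below 1 both between chromosomes (0.23, 0.08 to 0.54) and within them (0.42, 0.20 to 0.82). For all pairs of protein-coding loci the same calculation gave 1.10 in ESC and 1.08 in NCC. Contacts of the members with all other genes were also near the expected number, at 1.10 (1.07 to 1.13) from 6139 read pairs in ESC and 1.02 (0.99 to 1.05) from 5825 in NCC.

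**Figure D1:**
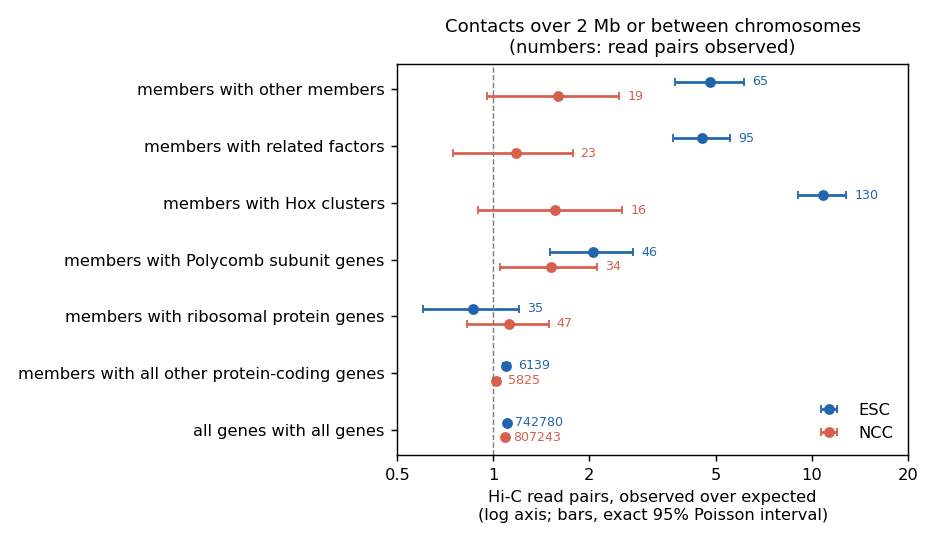
Hi-C read pairs between member loci and each gene list, observed over expected (horizontal log axis; points, ESC and NCC; bars, exact 95% Poisson interval; numbers beside the points, read pairs observed). The ESC points of members with members, with their relatives and with Hox clusters sit at 4.80, 4.51 and 10.8, and the NCC points of the same lists at 1.59, 1.18 and 1.56.

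The ratio was highest at the loci themselves. When 40 kb cells were laid around every pair of member loci over 3 mb apart or on different chromosomes, the cell with both windows held 57 read pairs in ESC against 11.0 expected (5.17, 3.92 to 6.70). The ratio was lower around it, at 1.65 (1.31 to 2.06) in the ring from 20 to 60 kb away, 1.54 (1.30 to 1.81) from 60 to 100 kb, 1.17 (1.08 to 1.27) from 100 to 220 kb and 1.07 (1.02 to 1.13) from 220 to 420 kb. All 4 intervals excluded 1, so the surroundings of the loci also held more ESC read pairs than expected. In NCC the central cell held 15 read pairs against 10.3 expected (1.46, 0.82 to 2.41), and the rings gave 1.04, 1.04, 1.07 and 0.95. ESC therefore showed a central maximum above its surroundings, while the central NCC value had an interval that included 1.

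**Figure D2:**
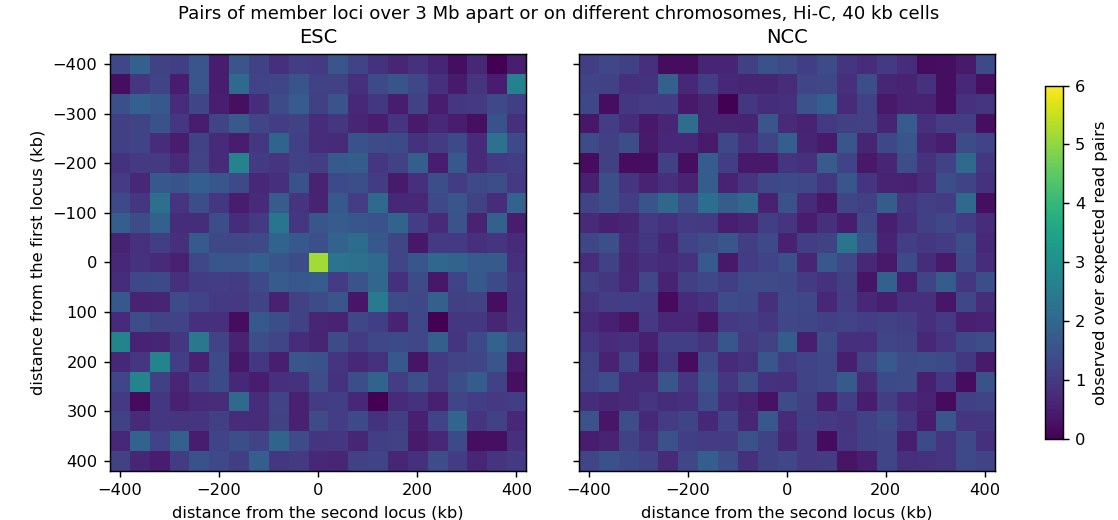
Observed over expected Hi-C read pairs (colour) around pairs of member loci in ESC and NCC, with the distance from the first and the second locus in kb on the axes, in 40 kb cells. The central ESC cell stands at 5.17, and the central NCC cell at 1.46.

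The ESC read pairs were spread over many loci, though unevenly. Lhx2 and the Dlx1/Dlx2 locus had 18 of the 65 each, counting those between them. They came from 62 interactions, of which 3 had a score of 2 and the rest a score of 1, on 73 of the 249 anchors in the windows, and they joined 45 pairs of loci that involved 35 of the 43 loci. In NCC, 19 interactions, each with 1 read pair, joined 16 pairs of loci that involved 23 loci. Of the 27 pairs of loci on different chromosomes seen in ESC, each had 1 read pair, and none was seen again among the 7 in NCC. On the same chromosome, 18 pairs of loci had contacts in ESC and 9 in NCC, and 4 were seen in both. More contacts with other members were found in ESC for 27 loci and in NCC for 7, with 9 equal. Barhl2, Nkx6-1, Nkx2-5, Lhx5, Pax7, Six2 and the Dlx6/Dlx5 locus had between 4 and 6 contacts in ESC and 0 in NCC.

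The inter-chromosomal read pairs of ESC joined regulators of unlike tissues as well as relatives. The locus of Dlx1 and Dlx2, forebrain interneuron factors, had 1 read pair each with Six3 (eye and forebrain), Pax2 (kidney and midbrain), Tbx15 (skeleton), Foxf1 (lung and gut mesoderm) and Barhl2 (retina and spinal cord). Pax7, a factor of neural crest and muscle stem cells, had 1 each with Pax2, Foxf1, Tbx4 and Nkx2-5. Between members of different families on different chromosomes there were 25 read pairs in ESC against 4.27 expected (5.86, 3.79 to 8.65), and between members of 1 family 2 (5.29, 0.64 to 19.1). Within chromosomes the ratios in ESC were 5.07 (3.51 to 7.08) for different families and 1.83 (0.50 to 4.68) for the same family, and the same-family ratio in NCC, 3.31 (1.08 to 7.74), rested on 5 read pairs. Between chromosomes, genes of different families thus made up 25 of 27 read pairs, with 4.27 of 4.65 expected from the make-up of the list.

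By distance, the ESC ratio was 2.23 (0.97 to 4.40) at 2 to 10 mb, 6.43 (4.12 to 9.57) at 10 to 40 mb and 3.78 (1.39 to 8.22) above 40 mb. The corresponding NCC ratios were 1.78, 2.12 and 1.23, and all 3 intervals included 1.

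A single pair of loci held the most read pairs. Lhx2, a LIM homeobox factor of eye and forebrain, and the Dlx1/Dlx2 locus lie 33.2 mb apart on chromosome 2, and 11 Hi-C read pairs joined them in ESC against 1 in NCC. These were 33.8 times (16.9 to 60.5) and 5.18 times (0.13 to 28.8) the expected number. Without chromosome 2, which carries both, the within-chromosome ratio in ESC was 7.27. Nkx6-1, a ventral neural tube and pancreas factor, and Barhl2, 4.79 mb apart on chromosome 5, had 4 read pairs in ESC (19.5, 5.31 to 49.9) and 0 in NCC. Both loci also contacted Lhx5, farther along the same chromosome, in ESC Hi-C.

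Sequence upstream of the start is shown for 3 loci of these pairs, because CpG-rich promoters are the known landing places of Polycomb in ESC, and for Barhl1, which had 1 member contact in either cell type with 2.32 and 1.49 expected and was chosen as a sparse contrast after its values were seen. Each line holds the 150 bases before the RefSeq start of the gene, 5′ to 3′ on the gene's strand (GRCm38.p6), with CG dinucleotides in capitals. The positions are chr2:38339131-38339280 on the plus strand for Lhx2, chr2:71546755-71546904 on the minus strand for Dlx2, chr5:106458167-106458316 on the minus strand for Barhl2 and chr2:28916669-28916818 on the minus strand for Barhl1.
Lhx2: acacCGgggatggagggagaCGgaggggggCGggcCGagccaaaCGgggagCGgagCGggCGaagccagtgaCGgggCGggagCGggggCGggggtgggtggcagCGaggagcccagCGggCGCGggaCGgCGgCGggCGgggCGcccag
Dlx2: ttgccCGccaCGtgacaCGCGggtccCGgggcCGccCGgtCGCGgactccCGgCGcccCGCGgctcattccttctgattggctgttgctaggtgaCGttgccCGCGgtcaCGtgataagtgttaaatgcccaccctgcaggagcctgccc
Barhl2: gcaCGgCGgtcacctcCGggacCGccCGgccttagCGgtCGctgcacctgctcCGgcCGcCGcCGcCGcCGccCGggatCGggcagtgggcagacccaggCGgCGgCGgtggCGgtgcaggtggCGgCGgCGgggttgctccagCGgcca
Barhl1: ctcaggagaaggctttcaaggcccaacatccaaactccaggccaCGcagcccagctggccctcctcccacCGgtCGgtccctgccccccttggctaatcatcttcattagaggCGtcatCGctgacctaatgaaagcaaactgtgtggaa
The Lhx2, Dlx2 and Barhl2 stretches hold 21, 17 and 23 CG dinucleotides and the Barhl1 stretch holds 5. Of the members, 32 had an upstream sequence in the RefSeq table, and their median was 15.5 CG in 250 bases, against 10.0 over 16432 genes. At least 10 CG were found in 22 of these 32 members (68.8%) and in 52.7% of all genes, but also in 83.3% of ribosomal protein genes and in 88.5% of both the relatives and the Polycomb subunits in the table. Foxd3 and Nkx6-2, with 21 and 26 CG in 250 bases, had 0 member contacts in ESC. Only 0.46 and 0.24 were expected there, too few to tell 0 from the expected number. Nkx2-5 and Six3, with 8 and 10 CG, had 5 each against 0.37 and 0.31 expected. A relation of CG number to contacts over the 32 members was not tested. These 4 were picked after their values were seen, and the RefSeq starts of Nkx2-5 and Six3 are not the 5′ ends used for their windows.

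CG content was high around the members on the wider scale too. The median window had 19 CG per kb against 11.6 over all genes, and 43 of 45 members were above that median. GC content was higher as well (47.3% against 44.4%), with 41 of 45 members above the median of all genes, and the number of GATC cutting sites was 97 against 99. Hox windows had a median of 26.8 CG per kb, windows of related regulators 18.1, of ribosomal protein genes 14.9 and of Polycomb subunits 14.8. The part of CG and GC content in the contacts was not tested.

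Other pairs of loci also had at least 3 read pairs over both cell types. Lhx6 and Lhx2, 2.23 mb apart, had 3 read pairs in ESC (1.99 times expected) and 4 in NCC (3.95 times), so this pair was not higher in ESC. Gata3, a T cell and inner ear factor, had 3 read pairs with Lhx2 at 28.4 mb in ESC (14.9 times) and 0 in NCC. With Pax8, a thyroid and kidney factor 14.6 mb away, Gata3 had 2 in ESC and 1 in NCC (12 and 6.41 times). Irx5 and Foxf1, 28.7 mb apart, also had 2 and 1 (24.7 and 21.8 times). Among loci, Dlx1/Dlx2 and Lhx2 had the most member contacts in ESC, 18 each, with 1 and 6 in NCC. Foxf1 had 7 and 1. No member contact was found in ESC for Foxd3, Irx1, Nkx2-1, Nkx2-2, Nkx2-9, Nkx6-2, Pax9 and Six6. Their expected numbers were also low, from 0.09 (Irx1) to 0.49 (Six6).

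The members also met genes outside their list. With 37 loci of related regulators that are no members (such as Pax6, Isl1, Foxc1 and Tbx3), 95 read pairs were found in ESC against 21.06 expected (4.51, 3.65 to 5.52) and 23 against 19.48 in NCC (1.18, 0.75 to 1.77), a ratio of NCC to ESC of 0.26 (0.16 to 0.42). With the loci of Polycomb subunits and partners, genes transcribed in many cells, there were 46 in ESC (2.06, 1.51 to 2.74) and 34 in NCC (1.51, 1.05 to 2.11), and the ratio, 0.74 (0.46 to 1.17), had an interval that included 1. With ribosomal protein genes, which every cell transcribes, there were 35 (0.87, 0.60 to 1.20) and 47 (1.12, 0.82 to 1.49).

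Within the other lists, relatives of the members held 30 read pairs among themselves in ESC (4.59 times expected) and 8 in NCC (1.35 times), the same order as the members. Polycomb subunits held 13 and 11 (1.62 and 1.24 times). Ribosomal protein loci held 81 and 89 (1.89 and 1.90 times), nearly equal in both cell types. Hox clusters held 26 among themselves in ESC against 0.49 expected and 1 in NCC against 0.74.

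Hox clusters were the strongest partners of the members among the lists examined. In ESC, 130 Hi-C read pairs joined members with Hox loci against 12.06 expected (10.8, 9.01 to 12.8), and in NCC 16 against 10.22 (1.56, 0.89 to 2.54), a ratio of NCC to ESC of 0.15 (0.08 to 0.24). On different chromosomes there were 33 in ESC (9.45, 6.50 to 13.3) and 10 in NCC (2.22, 1.07 to 4.09). HoxD took 66 of the 130, HoxB 38, HoxA 14 and HoxC 12, which were 11.6, 11.6, 7.25 and 10.1 times expected. In NCC the 4 clusters had 2, 8, 4 and 2.

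Most HoxD contacts came from the Dlx1/Dlx2 locus, 3.15 mb away. It had 46 read pairs with HoxD in ESC (14.9, 10.9 to 19.8) and 1 in NCC. Of the 46, 29 lay nearer Dlx2 and 17 nearer Dlx1, and 22 had their other end nearest Hoxd12 or Hoxd13, the genes at the 5′ end of the cluster used last in limb and trunk. A further 10 were nearest Hoxd3 or Hoxd4 and 6 nearest Hoxd1. Without the Dlx1/Dlx2 locus, 84 read pairs joined members and Hox loci in ESC against 8.80 expected, and 15 against 8.51 in NCC.

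Other members with Hox contacts lay on several chromosomes. Tbx4, a hindlimb factor, had 11 read pairs with HoxB at 10.3 mb in ESC (14.9 times expected) and 0 in NCC. Tbx2, its neighbour, had 8 and 1, and Lhx1, a kidney and head organiser factor, 5 and 2 (9.27 times in ESC). Dlx6/Dlx5, craniofacial and limb factors, had 8 with HoxA at 45.3 mb in ESC (15.0 times) and 1 in NCC. Lhx2 had 8 with HoxD at 36.4 mb (15.3 times) and 1. Pax7 and HoxB, on different chromosomes, had 8 in ESC against 0.05 expected (151, 65.3 to 298) and 0 in NCC. In all, 20 loci had a Hox contact in ESC and 14 in NCC.

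**Figure D3:**
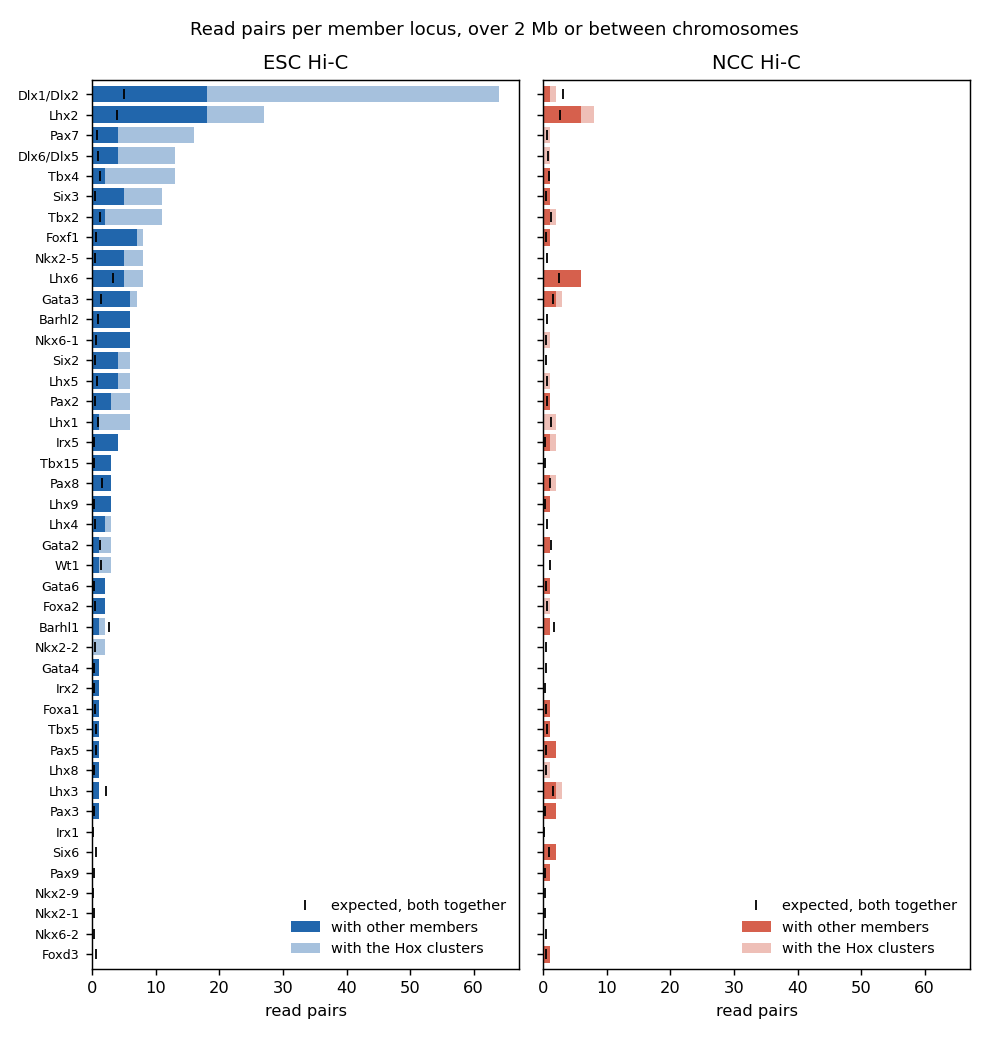
Hi-C read pairs of each member locus with other members and with Hox clusters in ESC and NCC (horizontal axis, number of read pairs over 2 mb apart or between chromosomes; ticks, the expected number of both together). In ESC Dlx1/Dlx2 and Lhx2 have 18 read pairs with other members each, and in NCC no locus has more than 6.

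The HiChIP tables held few such contacts. Between members, FGFR1 HiChIP had 4 read pairs in ESC against 1.11 expected (3.62, 0.99 to 9.26) and 1 in NCC against 0.89 (1.13, 0.03 to 6.28). CTCF HiChIP had 3 in ESC against 0.29 (10.2, 2.11 to 29.9) and 0 in NCC against 0.38, which allows a ratio of up to 9.60. Nkx6-1 with Barhl2, the pair seen in ESC Hi-C, had 1 read pair in either antibody's ESC table, and Lhx9 with Lhx4 (FGFR1) and Nkx6-1 with Lhx5 (CTCF) were also pairs of ESC Hi-C. With Hox clusters, FGFR1 HiChIP had 8 in ESC (8.45, 3.65 to 16.7) and 1 in NCC, and CTCF HiChIP 3 (7.0, 1.44 to 20.5) and 0. Among the former were 3 between Dlx1/Dlx2 and HoxD, and among the latter 2 between Dlx6/Dlx5 and HoxA. At this depth a difference between the HiChIP libraries of ESC and NCC in member contacts was not detectable.

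In Hi-C the number of read pairs near each member changed less than the contacts among members, with 26 members below 1 and 19 above. In Hi-C, with libraries scaled to the same total, 6 of 45 members were at least 25% higher in NCC and 11 at least 20% lower, while 17.8% and 21.7% of all genes were. The members' median NCC over ESC ratio was 0.94 and that of all genes 0.98. The share of the members past the fold was thus near that of all genes. Counting intervals excluded 1 for 31 members, 20 below and 11 above. That count was not made over all genes, so it shows nothing particular to the members.

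Among the lowest, Foxd3 went from 1461 to 935 read pairs (0.63, 0.58 to 0.68). Dlx5 went from 953 to 647 (0.66), Dlx6 from 1563 to 1176 (0.74), Lhx5 from 2057 to 1498 (0.71) and Barhl1 from 2246 to 1667 (0.73). All 4 Dlx genes had ratios below 1 (0.66 to 0.87). The highest were Six6, an eye and pituitary factor, from 798 to 1218 (1.49, 1.36 to 1.63), Lhx1 from 1335 to 1993 (1.46), Nkx2-9 from 397 to 577 (1.42), and Gata4 and Gata3, from 1022 to 1471 (1.41) and from 1403 to 1943 (1.35). The Gata family, factors of blood, heart and endoderm, had a median of 1.20 (0.93 to 1.41). Below 1 were 5 of 6 Pax genes, 3 of 4 Fox genes and 2 of 8 Lhx genes, and 10986 of the 20583 genes counted. Gata3 thus had more read pairs in NCC, and 6 contacts with other members in ESC against 2 in NCC. Neighbouring Dlx genes share part of their windows and are not separate measurements.

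In FGFR1 HiChIP, 3 members were at least 1.5 times higher in NCC and 16 lower, where all genes gave 18.2% and 25.2%. The median was 0.81 for members and 0.92 for all genes. Members thus leaned lower in NCC here, with 31 below 1 and 14 above. Counting intervals excluded 1 for 27 members, 21 below and 6 above, a count not made over all genes. Foxd3 had the lowest ratio, from 242 read pairs on 6 anchors to 81 on 4 (0.28, 0.21 to 0.36). Irx2 (166 to 70, 0.35), Lhx2 (103 to 50, 0.40), Dlx1 (238 to 117, 0.41) and Barhl2 (144 to 75, 0.43) were the next lowest. The 4 Dlx genes again all lay below 1 (0.41 to 0.64, median 0.58), as did 11643 of the 20287 genes counted. At the other end stood Lhx8, a basal forebrain factor, from 65 to 158 (2.02, 1.5 to 2.74), Gata6, a heart and endoderm factor (70 to 154, 1.83), Nkx2-5, a heart factor (97 to 178, 1.53), Wt1, a kidney and gonad factor (108 to 189, 1.45), and Gata2, a blood factor (145 to 251, 1.44). Of the 16 lower members, 11 had fewer anchors in NCC and 5 as many, and the 3 higher ones all had more. The part of anchor calling in these ratios was not tested.

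In CTCF HiChIP, 15 members were at least 1.5 times higher in NCC and 13 lower, against 23.2% and 24.7% of all genes, and the medians were 1.01 and 0.99. Nkx2-9, a floor plate factor, went from 11 read pairs on 1 anchor to 48 on 5 (5.03, 2.58 to 10.7), and Lhx2 from 18 on 1 to 78 on 5 (5.0, 2.96 to 8.87). Pax7 (51 to 159, 3.59), Foxd3 (24 to 64, 3.07) and Wt1 (26 to 67, 2.97) followed. All 4 Fox genes were above 1 (1.53 to 3.07, median 2.0), as were 9351 of the 19018 genes counted. The lowest were Nkx6-1, from 49 on 4 anchors to 10 on 2 (0.24, 0.11 to 0.47), Dlx2 (83 to 21, 0.29), the nephron progenitor factor Six2 (96 to 29, 0.35), Tbx5, of forelimb and heart (89 to 27, 0.35), and Six6 (41 to 15, 0.42). Again the calls went with anchors, as 11 of the 15 higher members had more anchors in NCC and 11 of the 13 lower ones fewer.

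Single members did not move alike in the 3 assays. Lhx2 held 1555 and 1668 Hi-C read pairs in ESC and NCC, 103 and 50 in FGFR1 HiChIP and 18 and 78 in CTCF HiChIP. Foxd3 held 1461 and 935, 242 and 81, and 24 and 64. Both were lower in NCC with FGFR1 and higher with CTCF. Six6, by contrast, held 798 and 1218, 145 and 202, and 41 and 15, higher in NCC in Hi-C and lower with CTCF. Pax7 held 2370 and 2104, 209 and 163, and 51 and 159. Dlx2 was lower in NCC in all 3 assays, with 2455 and 1890, 271 and 208, and 83 and 21.

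**Figure D4:**
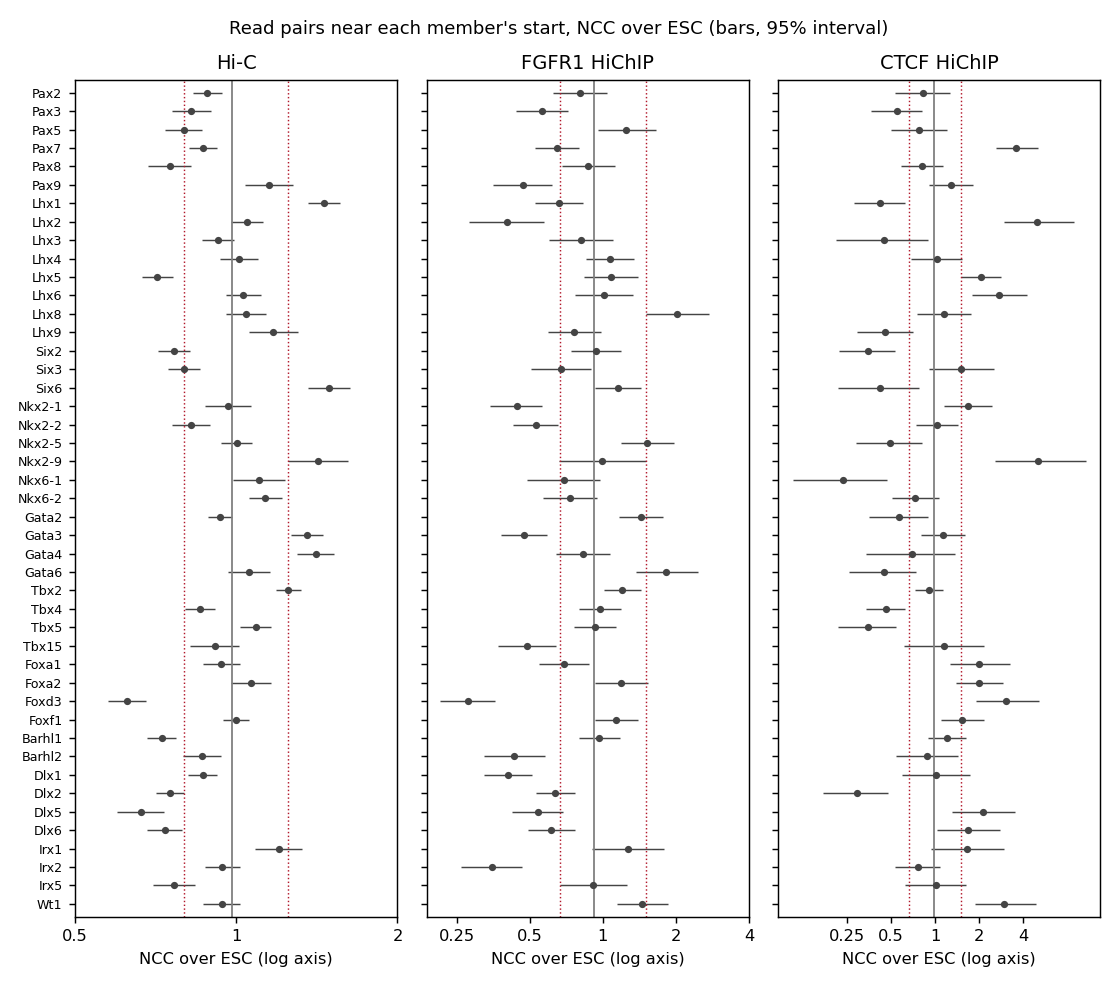
NCC over ESC ratio of read pairs near the start of each of the 45 members in Hi-C, FGFR1 HiChIP and CTCF HiChIP (horizontal log axes; bars, exact 95% interval). Hi-C ratios run from 0.63 to 1.49, and CTCF HiChIP ratios from 0.24 to 5.03.

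The other lists, counted in the same way, gave 1 higher and 10 lower of 38 relatives in Hi-C (median 0.97), 6 and 5 of 32 Polycomb subunits (0.96), 2 and 8 of 39 Hox genes (0.93) and 4 and 12 of 79 ribosomal protein genes (0.96). In FGFR1 HiChIP the counts were 4 and 8 of 37 relatives, 4 and 2 of 32 Polycomb subunits, 4 and 9 of 39 Hox genes and 4 and 24 of 79 ribosomal protein genes. In CTCF HiChIP they were 6 and 7 of 38, 6 and 5 of 31, 13 and 1 of 39, and 15 and 17 of 78. Genes of a Hox cluster share windows and are not separate measurements.

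HiChIP over Hi-C at the members was mostly below 1. With CTCF in ESC, 2 of 45 members had a share of read pairs at least 1.5 times their share in Hi-C and 25 had one at least 1.5 times lower, against 16.2% and 30% of all genes, and the medians were 0.62 and 0.89. With CTCF in NCC there were 7 and 18 (19% and 32.4% of all genes), with medians of 0.75 and 0.89. With FGFR1 there were 4 and 16 in ESC (15.5% and 30.6%) and 0 and 22 in NCC (18.2% and 37.3%), where the members' median was 0.86 in ESC, the same as over all genes, and 0.68 in NCC against 0.80.

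Lhx2 was lowest for CTCF in ESC (0.20) and for FGFR1 in NCC (0.20). Six3, a forebrain and eye factor, was among the 5 lowest for CTCF in ESC (0.26) and for FGFR1 in both cell types (0.47 and 0.40). Lhx3, a pituitary and motor neuron factor, was among the 5 lowest for both antibodies in both cell types, from 0.15 to 0.42. With them in ESC stood Dlx1 (0.26) and Foxd3 (0.28) for CTCF, and Gata2 (0.38), Lhx5 (0.41) and Nkx2-5 (0.44) for FGFR1. In NCC these were Gata4 (0.20), Gata2 (0.21), Dlx2 (0.22) and Six6 (0.25) for CTCF, and Irx2 (0.35) and Dlx1 (0.41) for FGFR1.

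Pax9, a tooth and thymus factor, was high for CTCF in both cell types (1.59 and 1.79) and for FGFR1 in ESC (1.59). Lhx9, a gonad factor, had 2.10 for CTCF and 1.69 for FGFR1 in ESC, and 1.10 for FGFR1 in NCC. Nkx2-1, of thyroid, lung and ventral forebrain, had the highest FGFR1 value in ESC (1.84) and the highest CTCF value in NCC (1.86). Pax8 had 1.5 and 1.62 for CTCF in ESC and NCC and 1.09 for FGFR1 in NCC. The remaining high values were Nkx6-1 (1.44) and Tbx2 (1.39) for CTCF in ESC, Nkx2-9 (1.67) and Lhx5 (1.56) for CTCF in NCC, Tbx15 (1.54) and Dlx5 (1.42) for FGFR1 in ESC, and Dlx5 (1.16), Six6 (1.10) and Lhx4 (1.03) for FGFR1 in NCC.

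**Figure D5:**
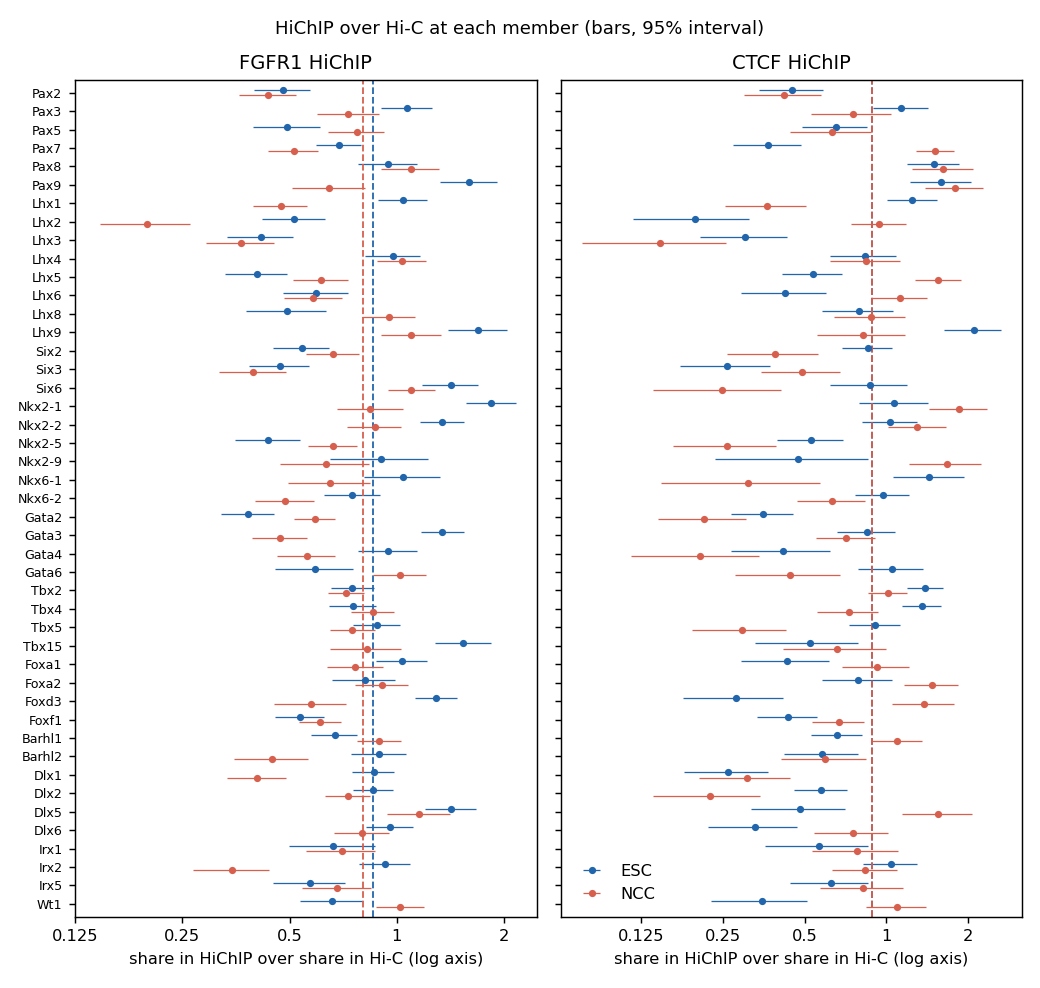
Share of read pairs near each member in FGFR1 and CTCF HiChIP over the share in Hi-C, in ESC and NCC (horizontal log axes; bars, exact 95% interval). The lowest value is that of Lhx3 with CTCF in NCC, 0.15, and the highest that of Lhx9 with CTCF in ESC, 2.10.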

How the data were processed

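Hi-C, FGFR1 HiChIP and CTCF HiChIP tables of ESC and NCC were used as deposited. Their scores are deposited counts of the read pairs linking each anchor to another or to itself. The authors ran HiC-Pro and hichipper on mm10, merging 2 biological replicates per table. Their methods equalised the number of valid read pairs between ESC and NCC, by a procedure not given in the sources used here. The deposited scores are whole numbers whose totals still differ between the cell types, so whether that step is contained in them is unknown, and libraries were scaled here to the same total. Versions of these programs are not given in the sources used here. Ends were assigned to GENCODE 5′ ends (GRCm38) by the anchor midpoint, within 20 kb. Contacts over 2 mb apart used 40 kb bins balanced in 30 rounds. Genes with under 20 read pairs over both libraries were left out of the gene counts. No p-value is given, because each group is 1 pooled library. Folds of 1.25 (Hi-C) and 1.5 (HiChIP, and HiChIP over Hi-C) counted as past the fold. Poisson and Clopper-Pearson intervals have 95% coverage. The calculation of expected numbers was run on read pairs simulated from its own model or by shuffling ends. That checks the arithmetic, not whether the model suits these loci.

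The members and lists (relatives of the members, Polycomb subunits, Hox genes, ribosomal protein genes) were chosen with earlier results of these data known. Named were pairs of loci with at least 3 Hi-C read pairs over both cell types and the 5 highest and 5 lowest members of each ratio, and families were described as groups. Single inter-chromosomal pairs, loci listed by their member or Hox contacts, members without contacts, HiChIP pairs and the printed promoters were chosen after their values were seen. Windows, anchor placement, scores, strong anchors, single loci, expected numbers, scaling and folds were varied. Python 3.11.15, numpy 2.4.6, scipy 1.17.1, pandas 2.3.3 and matplotlib 3.10.9 were used.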

Additional observations from a re-analysis of the deposited data

How the results depend on the processing

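No paired analysis was possible because the replicates of each cell type and assay were merged before deposit. For the same reason no replicate could be left out. Of 113 alternative values for contacts, 98 moved by less than their counting interval, 14 moved and 1 reversed, and of 88 counts of members, 63 stayed within 1.5 times and 25 moved. The reversed value was the ESC Hi-C ratio between chromosomes with scores of at least 2.

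With windows of 10 kb the ESC Hi-C ratios of observed to expected member contacts were 10.5 between and 6.76 within chromosomes, and with 50 kb 3.10 and 1.94. Without chromosome 2, a choice made after seeing the data, the within-chromosome ratio was 7.27. With scores of at least 2 alone, 0 read pairs between chromosomes remained in ESC (0.0179 expected) and in NCC (0.00327), and 0 within chromosomes in NCC (0.190), so the ratio of NCC to ESC was 0 within chromosomes and for both kinds. The inter-chromosomal excess therefore rests on interactions of a single read pair. The FGFR1 HiChIP value in NCC, from 1 read pair, was 0 with 10 kb windows and without chromosome 2, as was its ratio to ESC, and the CTCF HiChIP value in ESC was 32.0 with 10 kb windows.

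Members past the fold between NCC and ESC numbered in Hi-C 0 higher and 2 lower at a fold of 1.5, 3 and 5 with 50 kb windows, and 10 higher without the strongest 1% of anchors. In FGFR1 HiChIP 1 was higher and 9 lower at a fold of 2, 7 were lower with 50 kb windows, and 5 were higher with median scaling, 6 with 10 kb windows, 6 without the strongest anchors and 10 with scores of at least 2. In CTCF HiChIP 9 were higher at a fold of 2.

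For HiChIP over Hi-C at a fold of 2, FGFR1 had 0 higher and 8 lower in ESC and 10 lower in NCC, and CTCF had 1 higher and 16 lower in ESC and 0 higher in NCC. With 50 kb windows CTCF had 1 higher and 16 lower in ESC and 1 higher in NCC. With scores of at least 2, CTCF had 4 higher in ESC and 4 in NCC, and FGFR1 1 higher in NCC. The causes of these changes were not tested, except that a higher fold lowers a count by construction.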

Other observations

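Genes other than the members that met them were looked for over 10888 loci of all protein-coding genes, a search made after the contacts of the members were seen, so its values carry no test. In ESC Hi-C, 149 loci had at least 5 read pairs with member loci, and 45 of these were at least 5 times above the expected number. These 45 partner loci were selected on their ESC values and held 529 read pairs against 57.8 expected there, and in NCC, which the choice did not use, they held 49 against 47.8. The same rule in NCC gave 5 of 130 loci, with 26 read pairs against 4.33 expected, and 6 against 4.98 in ESC.

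Several patterning genes were among the 45 partner loci. Uncx, a homeobox factor of the somites, had 31 read pairs with members in ESC (23.5 times expected, 15.9 to 33.3), of which 15 were with Lhx5 at 19.1 mb, and 2 in NCC. Fezf1, a forebrain factor, had 13, all with Dlx6/Dlx5 at 16.4 mb, and 0 in NCC. The merged locus of Cyp27a1, Prkag3, Wnt6 and Wnt10a had 31, of which 22 were with Pax3 at 3.44 mb, and 0 in NCC. Tfap2a, a neural crest factor, had 9 read pairs with 9 different member loci in ESC and 0 in NCC. Pax6, of eye and forebrain, had 10 and 0. The partner loci also held genes of other kinds. Tesc had 20 read pairs in ESC, of which 18 were with Lhx5 at 2.40 mb, and 0 in NCC. Zfyve9 had 5 with 5 member loci in ESC and 0 in NCC.

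Loci that hold genes of Polycomb subunits were themselves among the 45 partner loci. The merged locus of Enpp7, Cbx2 and Cbx8 had 15 read pairs with 12 member loci in ESC (6.96 times expected) and 2 in NCC. The merged locus of Commd3, Bmi1 and Spag6 had 10 (5.67 times) and 0 in NCC. Read pairs of a merged locus were not assigned to single genes in it.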
